A study of Mus musculus with 19 samples.

Results

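RNA levels of 9 genes of the BCL2 family, which control the mitochondrial route to apoptosis, were followed through the step from mouse embryonic stem cells to epiblast-like cells. The genes were chosen by name, with earlier results of these data known. Members are the pro-survival genes Bcl2, Bcl2l1 and Mcl1, the effector genes Bax and Bak1, and the BH3-only genes Bcl2l11, Bbc3, Bmf and Bid. They are 9 of the 54119 genes obtained when the deposited transcript values were summed per gene, and all 9 were among the 14972 genes tested. The study asked whether TET3, an enzyme that oxidises 5-methylcytosine, is needed for this step, and it holds 19 libraries in 6 groups. Embryonic stem cells (mESC) were kept in N2B27 medium with LIF and inhibitors of the kinases GSK3 and MEK1/2, a condition that holds cells in naive pluripotency. Epiblast-like cells (EpiLC), which resemble the epiblast about the time of implantation, were derived over 5 days in FGF5 plus Activin A once LIF was withdrawn. Wild-type XX cells and the Tet3-/- mutant cells were of the LF2 line, and wild-type XY cells were of the E14 line, so that sex and cell line cannot be told apart. The mESC libraries number 3 for XX, 3 for XY and 4 for Tet3-/- cells, and each kind has 3 EpiLC libraries, where the Tet3-/- libraries are numbered 1, 3 and 4. The labels number the Tet3-/- libraries as mutants and do not say whether each is a clone of its own or whether replicates were separate cultures, so p-values measure only the spread between these libraries.

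The BCL2 family decides whether the outer mitochondrial membrane is breached. BCL2, BCL-XL (encoded by Bcl2l1) and MCL1 hold the effectors BAX and BAK in check, and when that restraint is lost the effectors form pores, cytochrome c leaks out and caspases are activated. BH3-only proteins report stress to this switch: BIM (Bcl2l11), PUMA (Bbc3), BMF and BID bind the pro-survival proteins, and some of them also engage BAX and BAK directly. Pluripotent cells are known for a low threshold to this form of death, and cells that are unfit are removed from the epiblast by apoptosis. Much of the control of these proteins, of MCL1 and BIM above all, acts after transcription, which RNA levels do not show.

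Values are transcripts per 1000000 (TPM), a measure per transcript length, so that levels can be compared between genes, divided by 1 scaling factor per library. The factors ran from 0.596 to 1.74 and were highest in the XY EpiLC libraries, from 1.40 to 1.74. Unscaled, the median log2 change of all tested genes was 0.54 in the XY transition, 0.14 in the XX transition, -0.13 in the Tet3-/- transition and -0.59 for XX against XY EpiLC. Scaled values therefore describe a gene relative to the bulk of the genes, and for the 9 genes the text says where a call that involves XY EpiLC differs as deposited TPM. The labelled states were checked with markers: 6 naive genes summed to 494 to 642 scaled TPM in the mESC libraries and to 35.5 to 90.4 in the EpiLC libraries, and 4 formative genes to 9.28 to 32.1 and 43.5 to 182. The formative gene Otx2 went against that sum in the XX cells, with 27.4, 18.2 and 26.2 scaled TPM in mESC and 11.9, 11.6 and 11.3 in EpiLC. Markers of other lineages stayed low, with 4 endoderm genes summing to at most 9.17, 4 fibroblast genes to at most 6.87, 3 trophoblast genes to at most 8.09 and 2 neural genes to at most 0.819. Tet3 RNA ran from 0.555 to 0.825 scaled TPM in Tet3-/- mESC and from 0.696 to 1.25 in XX mESC. The labels do not give the deleted part of the gene, so this level is no check of the genotype. In bulk RNA, fewer cells with a transcript and less of it per cell cannot be told apart. Some libraries stand apart within their groups, though not in 1 direction for all naive genes. XX mESC 2 has the lowest Dppa3 of its group (35.6 scaled TPM against 110 and 96.1) and the highest Zfp42 (121 against 88.8 and 80.9), Tfcp2l1 and Nanog. XY mESC 2 has the highest Dppa3 (108 against 14.7 and 12.5) and the lowest Zfp42 (151 against 234 and 205), Nanog, Esrrb and Tfcp2l1. Tet3-/- EpiLC 3 has 33.7 scaled TPM of the formative gene Fgf5 against 4.62 and 5.29.

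**Figure D1:**
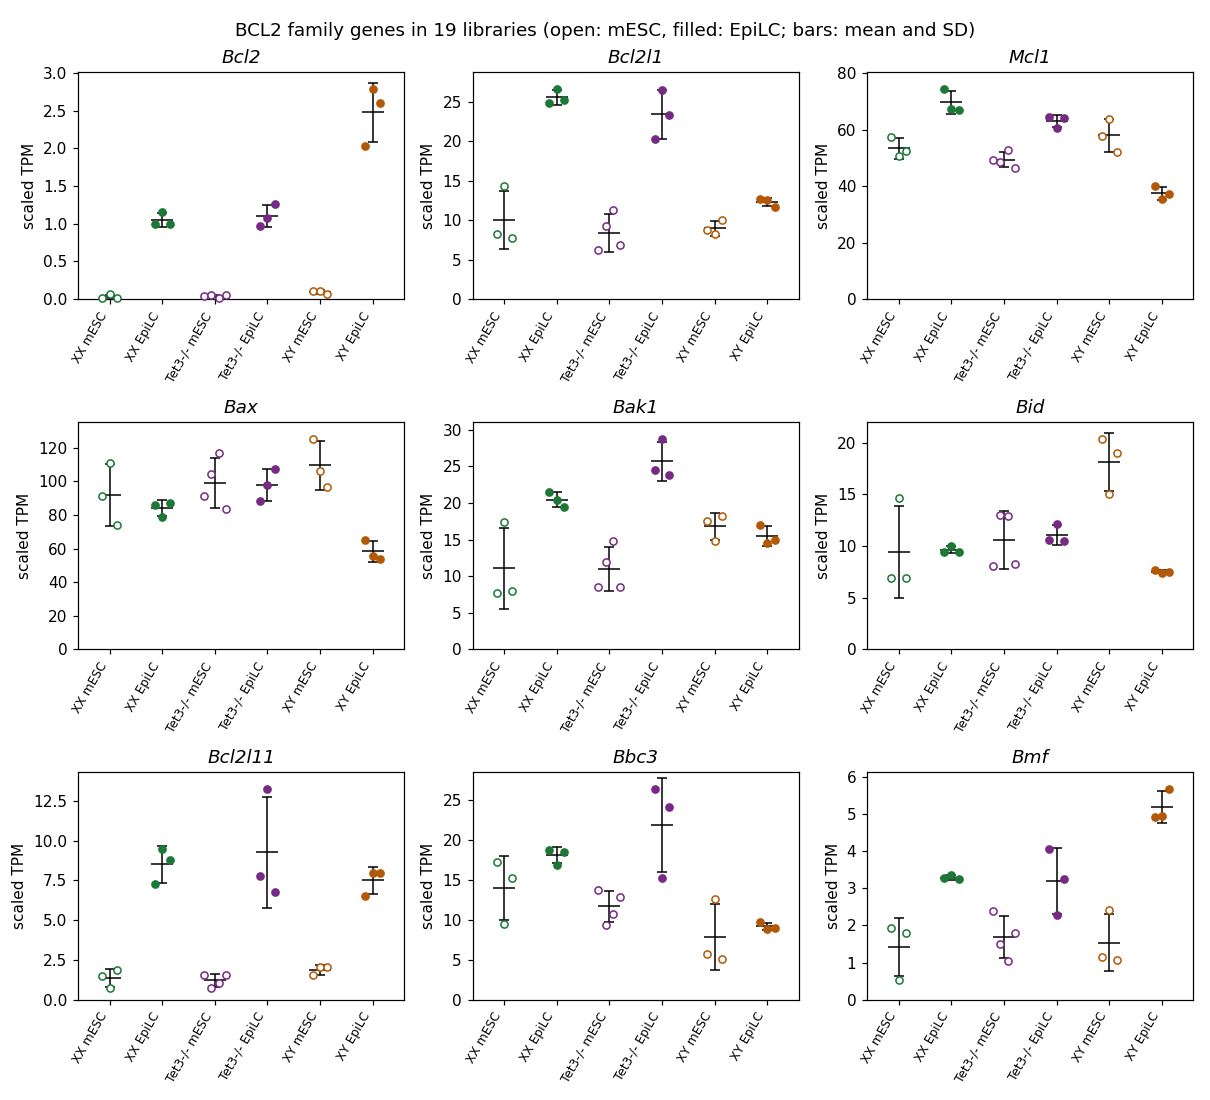
Scaled TPM of each of the 9 genes (vertical axes, linear and from 0) in every library of the 6 groups (horizontal axes). Points are libraries, open for mESC and filled for EpiLC, and bars give the mean and SD. Bcl2 and Bcl2l11 are higher in every EpiLC library than in any mESC library, and Mcl1, Bax and Bid are lower in XY EpiLC than in XY mESC on this scale, whereas as deposited TPM these states overlap for all 3.

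Bcl2, the founding pro-survival gene of the family (chr1:106538178-106714274, minus strand, GRCm38), was close to silent in mESC and present in every EpiLC library. Its level in XX mESC was 0.0122, 0.0626 and 0.0169 scaled TPM in libraries 1 to 3, and in XX EpiLC 0.997, 1.16 and 0.998. In Tet3-/- cells it was 0.0454, 0.0545, 0.0160 and 0.0573 scaled TPM in the mESC libraries and 0.975, 1.07 and 1.26 in the EpiLC libraries. No mESC library of either genotype reached the lowest EpiLC library. XY cells had the highest levels in both states, with 0.103, 0.114 and 0.0730 scaled TPM in mESC and 2.03, 2.79 and 2.60 in EpiLC. Bcl2 rose by 0.99 ± 0.09 log2 units (limma, SE, adjusted p = 2.12e-07) in the XX transition, by 1.01 ± 0.09 (adjusted p = 6.26e-08) in the Tet3-/- transition and by 1.66 ± 0.09 (adjusted p = 3.63e-10) in the XY transition, where the change as deposited TPM was 2.19. These changes are of log2(scaled TPM + 1), which understates the change of so low a gene: with 0.1 added in place of 1, the log2 changes of Bcl2 were 3.16, 3.07 and 3.71. Because its mESC level was below the minimum set for testing, Bcl2 entered the tests through its EpiLC level. Both annotated transcripts were seen in EpiLC: the 1 of 236 codons, which encodes the full-length protein, held 70.4% ± 5.32 (SD, n = 3) of Bcl2 TPM in XX EpiLC and 74.6% ± 5.37 (SD, n = 3) in XY EpiLC, and that of 199 codons held the rest. D630008O14Rik lies antisense to Bcl2 in the annotation, and the counting's use of strand is not given in the sources used here.

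The 250 bases before the RefSeq start of Bcl2 (chr1:106714291-106714540, minus strand, GRCm38.p6) are shown because this gene goes from near 0 to expressed in all 3 transitions. Capitals mark CG dinucleotides, the sites of the methylation that TET enzymes oxidise:
Bcl2: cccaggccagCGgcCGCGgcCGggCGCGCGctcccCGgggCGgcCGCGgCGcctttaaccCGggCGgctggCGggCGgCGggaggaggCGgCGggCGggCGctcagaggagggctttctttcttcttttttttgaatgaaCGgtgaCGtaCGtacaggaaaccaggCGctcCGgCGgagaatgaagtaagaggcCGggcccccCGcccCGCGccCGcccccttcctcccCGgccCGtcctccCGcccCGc
The window holds 36 CG dinucleotides, and 2.58% of the 32851 RefSeq promoter windows hold as many or more, against a median of 6. No methylation was measured in these libraries.

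Bcl2l1, which encodes the pro-survival protein BCL-XL (chr2:152780668-152831728, minus strand), rose in the LF2 cells of both genotypes. XX mESC libraries 1 to 3 had 8.21, 14.3 and 7.69 scaled TPM and XX EpiLC libraries had 24.8, 26.6 and 25.2. Tet3-/- mESC libraries had 6.17, 9.26, 11.3 and 6.80 scaled TPM and Tet3-/- EpiLC libraries had 20.2, 26.5 and 23.4. The lowest EpiLC library thus lay well above the highest mESC library in both genotypes. XY cells began at a similar level, 8.71, 8.20 and 9.99 scaled TPM, but reached only 12.7, 12.5 and 11.7 in EpiLC. Bcl2l1 rose by 1.31 ± 0.20 log2 units (limma, SE, adjusted p = 5.45e-05) in the XX transition and by 1.40 ± 0.19 (adjusted p = 1.15e-05) in the Tet3-/- transition. Its change in the XY transition, 0.42 ± 0.20 (adjusted p = 0.0980), did not pass the threshold on scaled values. It passed as deposited TPM (adjusted p = 0.0145), and without XX mESC 2, which alters the spread estimate, the scaled change of 0.42 passed (adjusted p = 0.0376). That change also passed in a limma fit of the XY groups alone (adjusted p = 0.00904) and with the replicate number as a block (adjusted p = 0.0279). The XY states did not overlap on scaled values.

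The table resolves Bcl2l1 further, since it lists 9 transcripts with several 5' ends. A distal start lies at position 152831728, and a proximal start lies 1062 bases downstream of it at 152830666. The main transcript of each start has 3 exons and 233 codons, and both share the same 2 coding segments, so they differ in a first exon, of 126 and 281 bases, that is not translated. Transcripts were grouped by these 2 starts (2 at the distal start, 4 at the proximal start, within 50 bases) after their values had been seen, and no test was made. From the proximal start, XX cells went from 3.52, 5.45 and 3.34 summed scaled TPM in mESC to 14.6, 17.0 and 15.4 in EpiLC. Tet3-/- cells went from 2.24 to 3.95 in mESC to 11.1 to 15.6 in EpiLC, and XY cells from 1.77 to 3.52 to only 3.09 to 3.95. From the distal start, the EpiLC levels of all 3 genotypes overlapped: 6.68 to 7.35 in XX, 5.51 to 8.17 in Tet3-/- and 6.33 to 7.85 in XY. This overlap depends on the scale: as deposited TPM, distal transcripts had 6.41, 6.92 and 6.81 in XX EpiLC and 10.1, 13.4 and 11.0 in XY EpiLC, with no overlap. Proximal transcripts did not overlap on that scale either, with 12.7, 16.5 and 15.7 TPM in XX EpiLC and 5.25, 5.26 and 6.88 in XY EpiLC. On both scales the proximal level was thus higher in XX than in XY EpiLC.

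**Figure D2:**
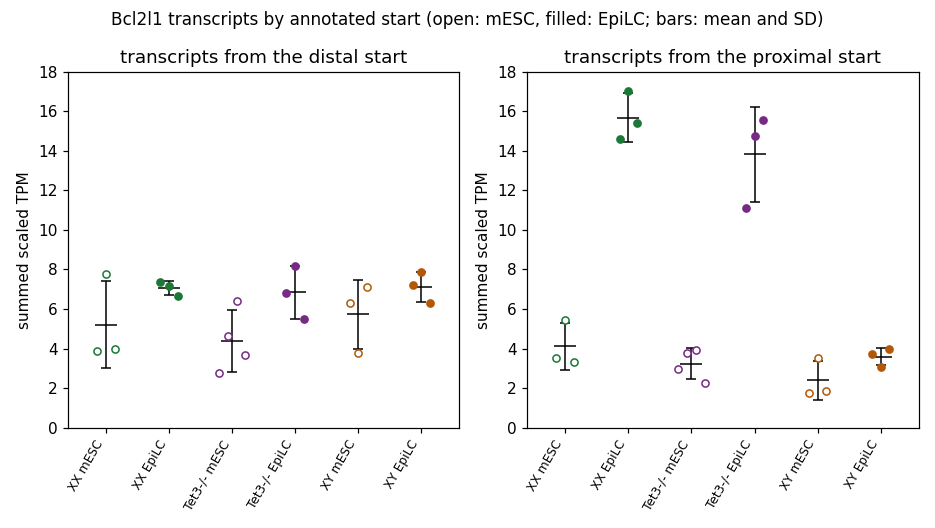
Summed scaled TPM of Bcl2l1 transcripts that start at the distal site (left) and at the proximal site (right), vertical axes linear and from 0, in every library of the 6 groups. Points are libraries, open for mESC and filled for EpiLC, and bars give the mean and SD. Proximal transcripts lie between 11.1 and 17.0 in XX and Tet3-/- EpiLC and at most at 5.45 in all other libraries, while distal transcripts overlap between the EpiLC groups on this scale.

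As a share of Bcl2l1 TPM, which does not depend on scaling between libraries, proximal transcripts held 61.4% ± 2.54 (SD, n = 3) in XX EpiLC, 59.1% ± 6.62 (SD, n = 3) in Tet3-/- EpiLC and 29.3% ± 4.54 (SD, n = 3) in XY EpiLC. The lowest XX EpiLC library had 58.9% and the highest XY EpiLC library 33.8%. In mESC the shares were 41.5% ± 2.88 (SD, n = 3), 39.1% ± 6.72 (SD, n = 4) and 27.3% ± 13.5 (SD, n = 3), with XY mESC 2 at 42.9% among the XX values. The split between transcripts of 1 gene is an estimate by the quantification program from reads in the first exons and across their junctions. The windows of 250 bases before the 2 RefSeq starts are shown because the estimated shares of their transcripts differed between XX and XY EpiLC. Capitals mark CG dinucleotides. The distal window (chr2:152831729-152831978, minus strand, GRCm38.p6) ends just before the annotated distal start, and the proximal window (chr2:152830718-152830967) ends at a RefSeq start 51 bases upstream of the annotated proximal start and lies in the first intron of the main distal transcript:
Bcl2l1 distal: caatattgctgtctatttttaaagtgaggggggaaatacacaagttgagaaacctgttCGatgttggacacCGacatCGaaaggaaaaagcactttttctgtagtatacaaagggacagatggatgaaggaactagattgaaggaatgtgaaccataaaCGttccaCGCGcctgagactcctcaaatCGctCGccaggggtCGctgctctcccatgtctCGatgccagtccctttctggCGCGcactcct
Bcl2l1 proximal: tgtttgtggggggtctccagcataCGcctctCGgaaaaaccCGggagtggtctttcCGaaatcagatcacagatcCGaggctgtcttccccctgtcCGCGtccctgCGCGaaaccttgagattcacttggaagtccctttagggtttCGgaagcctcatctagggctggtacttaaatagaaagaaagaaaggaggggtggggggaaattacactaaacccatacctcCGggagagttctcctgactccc
They hold 12 and 11 CG dinucleotides, counts that 33.5% and 35.6% of all windows reach. A transcript with a first exon of 727 bases runs across the proximal window and is in neither group, and its mean share of Bcl2l1 TPM was from 4.54% to 10.9% over the 6 groups.

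Mcl1, a pro-survival gene whose protein is short-lived (chr3:95658788-95663176, plus strand), was the most abundant of the 3 pro-survival genes in every library. XX mESC had 57.6, 50.5 and 52.3 scaled TPM and XX EpiLC 74.5, 67.4 and 67.0. Tet3-/- mESC had 49.3, 48.6, 52.9 and 46.6, and Tet3-/- EpiLC 64.4, 60.5 and 64.0. Both LF2 genotypes thus had a small increase without overlap. In XY cells the order was opposite on scaled values, with 57.9, 63.9 and 52.2 in mESC and 39.9, 35.5 and 37.2 in EpiLC, whereas the same libraries overlapped as deposited TPM (47.2 to 70.3 and 56.0 to 64.7). Mcl1 rose by 0.38 ± 0.10 log2 units (limma, SE, adjusted p = 0.00386) in the XX transition and by 0.35 ± 0.09 (adjusted p = 0.00396) in the Tet3-/- transition, where it did not pass as deposited TPM (0.21, adjusted p = 0.504) or with the mutant's number as a block (0.34, adjusted p = 0.101). In the XY transition it fell by 0.61 on the log2 scale (SE 0.10, adjusted p = 5.51e-05) relative to the bulk of the genes, and as deposited TPM its change was 0.10 (adjusted p = 0.723). The transcript of 331 codons held at least 99.8% of Mcl1 TPM on average in each group.

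Together the 3 pro-survival genes changed their proportions, which can be read within a library without any scaling. Mcl1 made up 84.2% ± 5.45 (SD, n = 3) of their summed TPM in XX mESC and 72.3% ± 1.77 (SD, n = 3) in XX EpiLC. The same share went from 85.6% ± 2.96 (SD, n = 4) to 72.1% ± 3.28 (SD, n = 3) in Tet3-/- cells and from 86.4% ± 2.35 (SD, n = 3) to 71.7% ± 1.65 (SD, n = 3) in XY cells. The 3 EpiLC groups thus arrived at similar Mcl1 shares, and their ranges overlapped. The Bcl2 share of the sum was 1.09% ± 0.114 (SD, n = 3) in XX EpiLC, 1.26% ± 0.145 (SD, n = 3) in Tet3-/- EpiLC and 4.75% ± 0.927 (SD, n = 3) in XY EpiLC, where the lowest library, at 3.72%, lay above the highest of the others, at 1.42%.

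Bax and Bak1 encode the pore-forming effectors. Bax (chr7:45461697-45466898, minus strand) was the most abundant of the 9 genes, with 91.4, 111 and 74.0 scaled TPM in XX mESC and 86.1, 78.5 and 87.2 in XX EpiLC. Tet3-/- mESC had 90.9, 104, 117 and 83.3, and Tet3-/- EpiLC 88.0, 97.6 and 107. Within both LF2 genotypes the states overlapped, and the log2 changes were -0.11 ± 0.16 (limma, SE, adjusted p = 0.580) in XX and -0.01 ± 0.15 (adjusted p = 0.963) in Tet3-/- cells. XY cells had 125, 106 and 96.8 scaled TPM in mESC and 65.1, 55.6 and 54.0 in EpiLC. There Bax fell by 0.89 on the log2 scale (SE 0.16, adjusted p = 0.000162) relative to the bulk of the genes, and its change as deposited TPM was -0.17 (adjusted p = 0.619). The transcript of 192 codons held from 67.7% to 73.8% of Bax TPM on average over the groups. The annotation also places Gm45808 on the same strand over Bax, so reads may be split between them.

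Bak1 (chr17:27019810-27029009, minus strand) was lower than Bax in every library and increased in the LF2 cells. XX mESC had 7.69, 17.4 and 8.02 scaled TPM, with library 2 near the EpiLC level, and XX EpiLC had 21.5, 20.4 and 19.4. Tet3-/- mESC had 8.53, 12.0, 14.8 and 8.53, and Tet3-/- EpiLC 24.4, 28.7 and 23.8. Neither genotype had an mESC library inside its EpiLC range. XY cells had 17.5, 14.7 and 18.3 in mESC and 17.0, 14.5 and 15.0 in EpiLC, which overlap. Bak1 rose by 0.92 ± 0.24 log2 units (limma, SE, adjusted p = 0.00393) in the XX transition and by 1.19 ± 0.22 (adjusted p = 0.000268) in the Tet3-/- transition. Its XY change was -0.11 ± 0.24 (adjusted p = 0.733) on scaled values and 0.58 (adjusted p = 0.205) as deposited TPM. The transcript of the full-length protein, of 209 codons, held only 17.6% to 25.1% of Bak1 TPM on average over the groups, and a transcript annotated as a target of nonsense-mediated decay, of 79 codons, held 30.8% to 41.0%. Ggnbp1 lies on the opposite strand over part of Bak1.

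The balance of the effectors within a library moved in all 3 genotypes. Bak1 amounted to 8.42% to 15.8% of Bax TPM in XX mESC and 22.3% to 26.0% in XX EpiLC, to 9.38% to 12.7% and 22.2% to 29.5% in Tet3-/- cells, and to 13.9% to 18.9% and 26.0% to 27.7% in XY cells. The states did not overlap in any genotype. In LF2 cells Bak1 rose on both scales and Bax passed on neither. In XY cells the log2 changes were -0.11 for Bak1 and -0.89 for Bax on scaled values, and 0.58 and -0.17 as deposited TPM, so the gene with the larger change in XY cells depends on the scale.

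**Figure D3:**
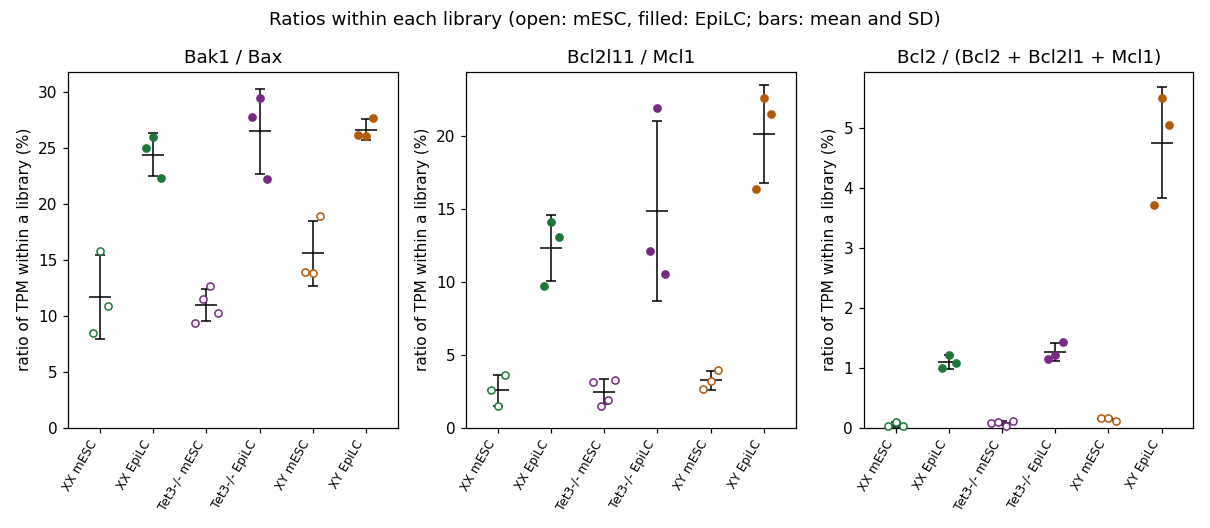
Ratios of TPM within each library, in percent (vertical axes, linear and from 0), for Bak1 to Bax, Bcl2l11 to Mcl1, and Bcl2 to the sum of Bcl2, Bcl2l1 and Mcl1, in the 6 groups. Points are libraries, open for mESC and filled for EpiLC, and bars give the mean and SD. All 3 ratios are higher in the EpiLC than in the mESC of each genotype with no overlap, and XY EpiLC stands above the other EpiLC in the Bcl2 ratio.

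Bcl2l11, which encodes the BH3-only protein BIM (chr2:128126038-128162547, plus strand), had the widest range of group means among the 9 genes on the scale of log2(scaled TPM + 1), while with a pseudocount of 0.1 the changes of Bcl2 were larger. It went from 1.48, 0.750 and 1.87 scaled TPM in XX mESC to 7.25, 9.51 and 8.76 in XX EpiLC. Tet3-/- cells went from 1.53, 0.734, 1.01 and 1.52 to 7.80, 13.3 and 6.75, and XY cells from 1.52, 2.04 and 2.04 to 6.51, 8.00 and 7.99. Every EpiLC library of the 3 genotypes lay above every mESC library, and Tet3-/- EpiLC 3, the library with high Fgf5, had the highest level. Bcl2l11 rose by 2.03 ± 0.22 log2 units (limma, SE, adjusted p = 1.14e-06) in XX, by 2.19 ± 0.21 (adjusted p = 1.70e-07) in Tet3-/- and by 1.57 ± 0.22 (adjusted p = 1.77e-05) in XY cells, and it was called on deposited TPM in all 3. Relative to Mcl1, whose protein BIM binds, Bcl2l11 TPM went from 2.54% ± 1.05 (SD, n = 3) to 12.3% ± 2.29 (SD, n = 3) in XX cells and from 3.24% ± 0.645 (SD, n = 3) to 20.1% ± 3.34 (SD, n = 3) in XY cells. Coding transcripts of several lengths were present together. The longest, of 196 codons, held the largest share in each group on average, from 38.7% to 44.2%. The transcript of 140 codons held 11.6% ± 0.874 (SD, n = 3) in XX EpiLC and 22.5% ± 7.02 (SD, n = 3) in Tet3-/- EpiLC, and that of 91 codons held 20.8% ± 0.628 (SD, n = 3) and 14.4% ± 0.176 (SD, n = 3).

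BIM is a textbook target of FOXO forkhead factors, and the first of the 2 RefSeq promoter windows of Bcl2l11 (chr2:128125788-128126037, plus strand, GRCm38.p6) is shown for that reason. Capitals mark a match to the forkhead core GTAAACA, searched on both strands:
Bcl2l11: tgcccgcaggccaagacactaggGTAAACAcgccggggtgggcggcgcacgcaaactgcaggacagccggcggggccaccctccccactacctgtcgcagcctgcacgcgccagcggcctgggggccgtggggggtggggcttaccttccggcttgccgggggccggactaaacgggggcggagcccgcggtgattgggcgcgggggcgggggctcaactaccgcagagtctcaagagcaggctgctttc
RefSeq held 16 windows for the 9 genes, at least 1 for each, and 2 of the 16 hold this core, the window shown and 1 of 3 windows of Bbc3. Of all 32851 windows of 300 bases, which include 50 bases after the start, 3.65% hold it. A match is a description of the letters only. Foxo3, whose mean level was above those of Foxo1 and Foxo4 in every group, went from 15.3 ± 4.28 to 14.2 ± 0.367 scaled TPM (SD, n = 3) in XX cells, a log2 change of -0.06 (limma adjusted p = 0.788). Foxo4 rose in all 3 transitions, from 7.83 ± 1.22 to 11.2 ± 0.473 scaled TPM (SD, n = 3) in XX cells. On deposited TPM, Foxo1 and Foxo3 were called as higher in the XY transition. Whether a FOXO factor acts on Bcl2l11 in these cells was not tested.

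Bbc3, which encodes PUMA, a BH3-only protein induced by p53 (chr7:16308393-16318205, plus strand), had 17.3, 9.53 and 15.2 scaled TPM in XX mESC and 18.8, 16.9 and 18.6 in XX EpiLC. Tet3-/- mESC had 13.7, 9.39, 10.8 and 12.8, and Tet3-/- EpiLC 26.4, 15.2 and 24.2. The states overlapped in XX and not in Tet3-/- cells. XY cells had 5.76, 12.6 and 5.09 in mESC and 9.73, 8.92 and 8.98 in EpiLC, where XY mESC 2 lay above all 3 EpiLC libraries. Bbc3 rose by 0.83 ± 0.25 log2 units (limma, SE, adjusted p = 0.0111) in the Tet3-/- transition, and without Tet3-/- EpiLC 1 the change was 0.68 (adjusted p = 0.0616). Its changes of 0.38 ± 0.27 (adjusted p = 0.255) in XX and 0.31 ± 0.27 (adjusted p = 0.367) in XY cells did not pass. Both passed as deposited TPM, with 0.63 (adjusted p = 0.0371) and 0.99 (adjusted p = 0.00120), and the XY change was 0.67 (adjusted p = 0.0272) on scaled values without XY mESC 2.

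Bmf, a BH3-only gene whose protein is held at the actomyosin motor in healthy cells (chr2:118528757-118549687, minus strand), had 1.94, 0.522 and 1.80 scaled TPM in XX mESC and 3.27, 3.37 and 3.24 in XX EpiLC. XY cells had 1.14, 2.42 and 1.06 in mESC and the highest levels, 4.92, 4.95 and 5.68, in EpiLC. The states did not overlap in either wild type. In Tet3-/- cells, with 2.40, 1.51, 1.03 and 1.79 in mESC and 4.06, 2.27 and 3.26 in EpiLC, they did. Bmf rose by 0.89 ± 0.25 log2 units (limma, SE, adjusted p = 0.00755) in XX and by 1.32 ± 0.25 (adjusted p = 0.000334) in XY cells, where the change as deposited TPM was 1.96. The Tet3-/- change of 0.65 ± 0.23 (adjusted p = 0.0291) was near the threshold, and it was 0.53 (adjusted p = 0.0536) as deposited TPM and 0.62, 0.52, 0.50 and 0.63 (adjusted p = 0.0577, 0.0887, 0.135 and 0.0739) without Tet3-/- mESC 2, mESC 3, EpiLC 1 or EpiLC 4.

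Bid, whose protein links death receptors to mitochondria once caspase-8 has cut it (chr6:120891930-120916853, minus strand), was lower in the EpiLC than in the mESC of the XY line on scaled values. XY mESC had 20.4, 15.0 and 19.1 scaled TPM and XY EpiLC 7.70, 7.40 and 7.50. The states were far apart there, and they overlapped in the LF2 cells, with 6.88, 14.6 and 6.91 in XX mESC and 9.47, 10.0 and 9.44 in XX EpiLC. Tet3-/- mESC had 8.07, 13.0, 12.9 and 8.27, and Tet3-/- EpiLC 10.5, 12.2 and 10.5. Bid fell by 1.16 on the log2 scale (limma, SE 0.23, adjusted p = 0.000458) in the XY transition relative to the bulk of the genes, and as deposited TPM the states overlapped (11.1 to 25.6 and 10.8 to 13.0) with a change of -0.50 (adjusted p = 0.262). The changes in XX, 0.10 ± 0.23 (adjusted p = 0.737), and Tet3-/- cells, 0.09 ± 0.21 (adjusted p = 0.757), did not pass. Bcl2l13, another family member, lies on the opposite strand over part of Bid.

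**Figure D4:**
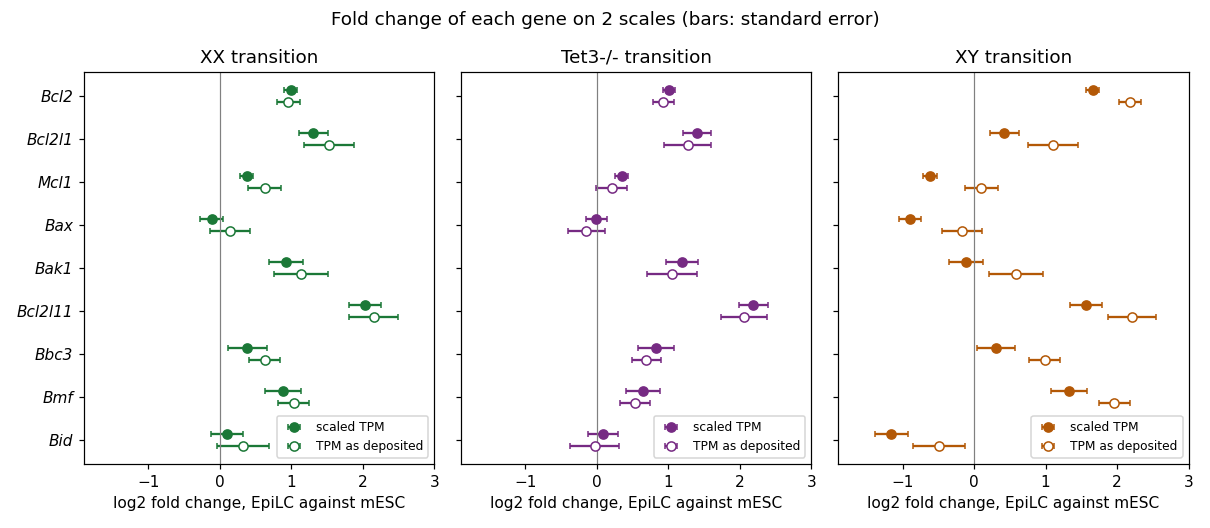
Log2 fold change of each gene from mESC to EpiLC (horizontal axes) in the XX, Tet3-/- and XY transitions, on scaled TPM (filled) and on TPM as deposited (open), with 1 added before the logarithm. Bars give the standard error. In the XY panel the open points lie to the right of the filled ones for all 9 genes, and those of Mcl1, Bax and Bid move towards or past 0.

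Counted over the family, 6 of the 9 genes rose and 0 fell in the XX transition, where 23.0% of all tested genes rose and 27.0% fell. In the Tet3-/- transition 7 rose and 0 fell, against 23.7% and 27.9% of all tested genes. The XY transition split the family: 3 rose (Bcl2, Bcl2l11 and Bmf) and 3 fell (Mcl1, Bax and Bid), against 24.5% and 26.4% of all tested genes. The median log2 change of the 9 genes was 0.89 in XX, 0.83 in Tet3-/- and 0.31 in XY cells, beside -0.05, -0.03 and -0.04 for all tested genes. As deposited TPM, 7, 5 and 5 of the 9 rose in the XX, Tet3-/- and XY transitions and 0 fell in each, where 31.3%, 35.1% and 50.5% of all tested genes were called in either direction. Bcl2, Bcl2l1, Bak1 and Bcl2l11 were called as higher in both LF2 transitions on both scales. The 9 genes were chosen with earlier results of these data known, so their counts beside all tested genes are a description and no test.

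The comparison that bears on TET3 called none of the 9 genes. In mESC, 0 of 9 passed between Tet3-/- and XX cells, where limma called 3.27% of all tested genes, and the log2 differences ran from -0.22 (Bcl2l1) to 0.19 (Bid) with standard errors from 0.09 to 0.25. In EpiLC, 0 of 9 passed, against 5.43% of all tested genes, with differences from -0.14 (Mcl1) to 0.31 (Bak1). The transitions of the 2 genotypes differed for 0 of 9 genes, against 0.628% of all tested genes, and the differences ran from -0.24 (Bmf) to 0.45 (Bbc3). At an unadjusted limma p under 0.05 the count was 0 of 9 in all 3 comparisons, against 2264, 2821 and 1614 of the 14972 tested genes. On deposited TPM 0 of 9 were called in each, where only 90, 161 and 26 of the 14972 tested genes were. With so few calls among all genes, the count of 0 on deposited TPM adds little to that on scaled values. Bbc3 had the widest gap between the LF2 transitions, 0.83 in Tet3-/- against 0.38 in XX cells, a difference of 0.45 ± 0.37 (limma, SE, adjusted p = 0.777). These comparisons share the XX libraries. A setting added after seeing the data left out both XX mESC 2 and Tet3-/- EpiLC 3, which stand apart. There Bid was 0.52 log2 units higher by limma in Tet3-/- than in XX mESC (adjusted p = 0.0481). XX mESC 2 had the highest Bid of its group, 14.6 scaled TPM against 6.88 and 6.91. Tet3-/- mESC 2 and 3, at 13.0 and 12.9 against 8.07 and 8.27, were kept. With 1 library left out at a time, 0 of the 9 passed in this comparison. The share of all tested genes called in the added setting was not counted.

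The wild-type lines were compared within each state. In mESC, Bbc3 was higher in XX than in XY cells by 0.83 ± 0.27 log2 units (limma, SE, adjusted p = 0.0287), and Bak1 and Bid were lower, with -0.65 ± 0.24 (adjusted p = 0.0471) and -0.94 ± 0.23 (adjusted p = 0.00473). That is 1 gene higher and 2 lower, where 18.2% and 12.6% of all tested genes were. The values overlapped between the lines for Bbc3 and Bak1: XX mESC 2 had 9.53 and 17.4 scaled TPM and XY mESC 2 had 12.6 and 14.7, each inside the range of the other line. For Bid the highest XX mESC library, at 14.6, lay just under the lowest XY mESC library, at 15.0. On deposited TPM only Bid passed (-1.18 ± 0.36, adjusted p = 0.0356), where 14.2% of all tested genes were called. Bak1 lost its call without XX mESC 1, XX mESC 3, XY mESC 1 or XY mESC 3, with differences from -0.62 to -0.46, and without any 1 of 9 libraries of other groups (adjusted p from 0.0542 to 0.0589). Bbc3 lost its call without the same 4 libraries, with differences from 0.61 to 0.75. In a limma fit of the XX and XY mESC groups alone, Bid, Bbc3 and Bak1 all lost their calls (adjusted p = 0.0877, 0.183 and 0.207). With the replicate number as a block they did so too (adjusted p = 0.197, 0.326 and 0.306).

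In EpiLC, 4 of the 9 genes were higher in XX than in XY cells and 1 was lower, where 17.9% and 15.1% of all tested genes were. Bcl2l1 was higher by 0.99 ± 0.20 log2 units (limma, SE, adjusted p = 0.00131), Mcl1 by 0.87 ± 0.10 (adjusted p = 3.42e-06), Bbc3 by 0.90 ± 0.27 (adjusted p = 0.0168) and Bax by 0.52 ± 0.16 (adjusted p = 0.0171). Bcl2 was lower, with -0.75 ± 0.09 (adjusted p = 1.21e-05). None of these 5 genes overlapped between the 2 groups, but they were picked by the same values, so this adds no support. The share of all tested genes without overlap was not counted. As deposited TPM, 0 genes were higher and Bcl2 and Bmf were lower, with -1.31 and -1.17 log2 units (adjusted p = 5.16e-06 and 0.000591), where 47.2% of all tested genes were called in either direction. The lower level of Bcl2 in XX EpiLC is thus the only call of this comparison present on both scales, and Bax turned to -0.22 (adjusted p = 0.511) on deposited TPM. Bax also lost its call on scaled values without XX EpiLC 1, XX EpiLC 3, XY EpiLC 2 or XY EpiLC 3 (differences from 0.47 to 0.50), and Bbc3 without XX EpiLC 1 (0.88, adjusted p = 0.0507).

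The 2 wild-type transitions were then set against each other. On scaled values the XX change minus the XY change was positive for 5 genes, Bcl2l1, Mcl1, Bax, Bak1 and Bid, and negative for Bcl2. Of all tested genes, 11.0% and 12.4% were called in these directions. Bax and Bid fell in XY cells and did not pass in XX cells, and Mcl1 rose in XX and fell in XY cells. The difference was 0.89 ± 0.29 log2 units (limma, SE, adjusted p = 0.0351) for Bcl2l1, 0.99 ± 0.14 (adjusted p = 7.02e-05) for Mcl1, 0.78 ± 0.22 (adjusted p = 0.0177) for Bax, 1.03 ± 0.34 (adjusted p = 0.0351) for Bak1 and 1.26 ± 0.32 (adjusted p = 0.00920) for Bid. For Bcl2 it was -0.67 ± 0.13 (adjusted p = 0.00161). As deposited TPM only Bcl2 passed (-1.22 ± 0.22, adjusted p = 0.000822), where 16.0% of all tested genes were called. That of Bcl2 did not pass on scaled values with a pseudocount of 0.1 (-0.55, adjusted p = 0.288). The call of Bcl2l1 was lost without any 1 of 10 libraries (mESC 1 or 3 or any EpiLC library of either line, 0.74 to 0.91), that of Bak1 without the same ones other than XY EpiLC 1 (0.84 to 1.07), and that of Bax without XX mESC 3 or XY mESC 1 (0.64 and 0.68).

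Some of the 9 genes moved together among the mESC libraries of 1 group. In XX mESC 2, Bak1, Bid and Bcl2l1 were highest of the 3 libraries and Bbc3, Bmf and Bcl2l11 lowest. Tet3-/- mESC 2 and 3 likewise had more Bak1, Bid and Bcl2l1 and less Bbc3, Bmf and Bcl2l11 than libraries 1 and 4. XY mESC 2 differed from its companions the other way for Bak1, Bid, Bbc3 and Bmf. The naive gene Zfp42 was highest in XX mESC 2 and in Tet3-/- mESC 2 and 3 (106 and 115 scaled TPM against 73.8 and 77.1) and lowest in XY mESC 2, and Dppa3 went the other way in XX mESC 2 and XY mESC 2. The part of these libraries in the results above was not tested beyond leaving them out.

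The genes whose levels ran most like those of the 3 members with the widest ranges on log2(scaled TPM + 1) were found by the root mean square difference of centred log2 values over the 19 libraries. For Bcl2l11 they were Arhgef17, Tmcc3 and Itga5, with differences of 0.17, 0.21 and 0.23 log2 units. For Bcl2 they were Slc4a3, Adamts6 and Moxd1 (0.09, 0.11 and 0.13), and for Bcl2l1 Fam13c, Rnpep and Rras2 (0.20, 0.20 and 0.21).

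Among 16 other genes of the family, 11 were tested. Pmaip1, which encodes the BH3-only protein NOXA that neutralises MCL1, rose by 3.17 ± 0.35 log2 units (limma, SE, adjusted p = 1.29e-06) in XX, 2.80 ± 0.33 (adjusted p = 2.00e-06) in Tet3-/- and 3.40 ± 0.35 (adjusted p = 5.06e-07) in XY cells. Its level went from 1.39 ± 0.631 to 20.0 ± 1.42 scaled TPM (SD, n = 3) in XX cells and from 0.359 ± 0.175 to 13.4 ± 1.35 (SD, n = 3) in XY cells, so that its mean was above that of Bcl2l11 in the EpiLC of both lines. Bcl2l14 fell in all 3 transitions, from 11.3 ± 0.514 to 0.659 ± 0.145 scaled TPM (SD, n = 3) in XX cells. Hrk, another BH3-only gene, rose in XY cells by 0.89 ± 0.11 (adjusted p = 5.37e-06) and was lower in XX than in XY EpiLC, with -0.92 ± 0.11 (adjusted p = 1.12e-05) and -1.42 as deposited TPM. Its mean was 1.79 scaled TPM in XY EpiLC and at most 0.523 in the other groups. Hrk thus entered the tests through XY EpiLC, the group in which it was called as higher. In all, 1 rose and 2 fell in XX, 2 and 2 in Tet3-/- and 3 and 2 in XY cells, with median log2 changes of 0.18, 0.15 and 0.26. Of all tested genes 23.0% rose and 27.0% fell in XX, 23.7% and 27.9% in Tet3-/- and 24.5% and 26.4% in XY cells.

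Downstream of the mitochondria, all 12 genes of the list of apoptosome, caspases and their inhibitors were tested. There 2 rose and 3 fell in XX, 3 and 4 in Tet3-/- and 4 and 1 in XY cells, with medians of 0.04, 0.04 and -0.17. Over all tested genes 23.0% rose and 27.0% fell in XX, 23.7% and 27.9% in Tet3-/- and 24.5% and 26.4% in XY cells. As deposited TPM, 2 of the 12 were higher and 0 lower in XX and 1 and 0 in Tet3-/- cells, so the falls in LF2 cells were called on scaled values alone. On deposited TPM 31.3% of all tested genes were called in either direction in XX and 35.1% in Tet3-/- cells. Apaf1, the scaffold of the apoptosome, rose in all 3, by 0.71 ± 0.13 log2 units (limma, SE, adjusted p = 0.000220) in XX, 0.65 ± 0.12 (adjusted p = 0.000260) in Tet3-/- and 0.32 ± 0.13 (adjusted p = 0.0455) in XY cells. Birc2, which encodes an inhibitor of apoptosis, also rose in all 3. Of 6 tested genes of the death receptor arm, which acts on BID through caspase-8, Casp8 and Tradd fell in all 3 transitions. Casp8 fell by 1.37, 0.63 and 0.59 on the log2 scale in XX, Tet3-/- and XY cells, and as deposited TPM its XY change was -0.04. Cflar, whose product restrains caspase-8, rose in all 3, by 1.44, 1.34 and 0.69. Of 7 mitochondrial and motor partners, 0 rose and 1 fell in XX, 1 and 2 in Tet3-/- and 0 and 4 in XY cells. Of 6 tested genes of BCL2 family protein turnover, 0 rose, and 3, 3 and 2 fell in XX, Tet3-/- and XY cells, among them Usp9x, which encodes a deubiquitinase that stabilises MCL1 (-1.12 ± 0.14 in XX by limma, adjusted p = 6.44e-06). As deposited TPM, the counts of higher and lower genes in the XY transition were 7 and 1 for the other family genes, 5 and 0 for the apoptosome list, 2 and 1 for the death receptor arm, 1 and 0 for the partners and 2 and 0 for turnover. There 50.5% of all tested genes were called in either direction.

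Upstream, the list of p53 and its targets held 20 genes, all tested. Of these 7 rose and 3 fell in the XX transition, 9 and 2 in the Tet3-/- transition and 1 and 7 in the XY transition, with medians of 0.17, 0.44 and -0.22 log2 units. Of all tested genes 23.0% rose and 27.0% fell in XX, 23.7% and 27.9% in Tet3-/- and 24.5% and 26.4% in XY cells. As deposited TPM the XY count turned to 6 higher and 2 lower, where 50.5% of all tested genes were called in either direction. Perp, an effector of p53, rose in all 3, from 17.4 ± 4.60 to 73.1 ± 7.23 scaled TPM (SD, n = 3) in XX cells and from 4.37 ± 0.554 to 13.9 ± 1.92 (SD, n = 3) in XY cells. Gadd45a rose in XX cells (1.81 ± 0.17, limma adjusted p = 1.99e-07). It was among 5 genes whose XX change minus XY change was positive and called, as for 11.0% of all tested genes (difference 2.23 ± 0.24, limma adjusted p = 6.99e-06, and 1.80 as deposited TPM). In EpiLC 13 of the 20 were higher in XX than in XY cells and 0 lower, where 17.9% and 15.1% of all tested genes were. The median of the 20 was 0.64 beside 0.01 for all tested genes. This list, like the others, was chosen with earlier results of these data known, so such counts and medians are a description and no test. As deposited TPM 6 were higher and 2 lower, where 47.2% of all tested genes were called in either direction. Perp, Eda2r, Fas, Btg2, Plk2 and Gadd45a were called as higher there on both scales. Fas had a mean of 1.92 scaled TPM in XX EpiLC, 0.402 in XY EpiLC and 0.224 in XY mESC. It thus entered the tests through the LF2 cells, in which it was called as higher. X-linked genes, whose dose can differ between XX and XY cells, were not set apart in this list or the others. Trp53 itself did not pass between these groups (-0.34 ± 0.37, adjusted p = 0.532).

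Of 9 tested factors known to act on Bcl2l11, Bbc3 or Bmf, 3 rose and 1 fell in XX, 5 and 1 in Tet3-/- and 4 and 1 in XY cells, with medians of 0.27, 0.50 and 0.39. Of all tested genes 23.0% rose and 27.0% fell in XX, 23.7% and 27.9% in Tet3-/- and 24.5% and 26.4% in XY cells. As deposited TPM the counts were 3 and 0, 2 and 1, and 6 and 0, where 31.3%, 35.1% and 50.5% of all tested genes were called in either direction. Jun, which encodes an AP-1 factor, rose in all 3, by 2.12 ± 0.29 log2 units (limma, SE, adjusted p = 1.56e-05) in XX, 2.49 ± 0.27 (adjusted p = 1.09e-06) in Tet3-/- and 0.85 ± 0.29 (adjusted p = 0.0241) in XY cells. Its change was larger in XX than in XY cells (1.28 ± 0.42, adjusted p = 0.0351) on scaled values, and on deposited TPM the difference of 0.84 did not pass. Myc and Foxo4 rose in all 3 as well, and E2f1 fell in all 3, with an XY change of -0.02 on deposited TPM. Foxo1 and Foxo3 passed in 0 of the 3 transitions on scaled values and both were called as higher in the XY transition on deposited TPM. Between Tet3-/- and XX cells, 2 genes over all 7 lists passed in EpiLC, Mdm4 (-0.72 ± 0.19, adjusted p = 0.0373) and Tnfrsf1a (0.43 ± 0.11, adjusted p = 0.0331), and 0 passed in mESC. Over all tested genes 5.43% passed in EpiLC, and neither of the 2 passed as deposited TPM.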

How the data were processed

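The labels' protocols describe strand-specific sequencing of total RNA after removal of ribosomal RNA. The submitters' processing notes name FastQC 0.11.7, Trimmomatic 0.35, Salmon 1.1.0 and the build GRCm38. The authors deposited TPM for 140948 transcripts in 19 libraries, each column summing to 1000000; 1 of these columns had to be entered as another unit, since its header is a number. TPM keeps no depth, so depth is unknown and counting error cannot be given. Transcripts were assigned to genes by the GENCODE M21 annotation: 139357 transcripts matched with their version, 495 without, and 1096, holding 0.0454% to 0.215% of TPM, were left out. TPM was divided by median-of-ratios factors over the 18385 genes above 0 in every library. limma 3.58.1 (R 4.3.3; lmFit, contrasts.fit, eBayes with trend) was fitted to log2(scaled TPM + 1) of all libraries with 6 group means, for the 14972 genes that reached a TPM of 1 in 3 or more libraries. P-values were adjusted by Benjamini-Hochberg within each of 9 comparisons, and genes under 0.05 were called. Simulated data with known changes were used to test the fitting script.

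Named are all 9 members, genes of 7 pathway lists, markers, the 3 genes most like each of the 3 widest-ranging members, and transcripts with at least 10% of a gene's TPM in a group. The members and lists were chosen with earlier results of these data known. Alternatives were unscaled TPM, a pseudocount of 0.1, no filter, a TPM minimum of 5, fits of only the groups compared, a replicate block and each library left out. Leaving out XX mESC 2 and Tet3-/- EpiLC 3 together was added after seeing the data. For transcript shares, only protein-coding transcripts were tried. Promoter sequences are RefSeq's (GRCm38.p6). Tables were handled with Python 3.11.15 and pandas 2.3.3. Where the table splits reads between transcripts or overlapping genes, values are estimates.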

Additional observations from a re-analysis of the deposited data

Results flagged for a closer look

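For 6 of the 9 genes the XX and XY transitions differed by a test of the difference itself (limma on scaled values, adjusted p under 0.05). The XX change minus the XY change was -0.67 log2 units for Bcl2, 0.89 for Bcl2l1, 0.99 for Mcl1, 0.78 for Bax, 1.03 for Bak1 and 1.26 for Bid. As deposited TPM these differences were -1.22, 0.43, 0.53, 0.32, 0.56 and 0.82, and only that of Bcl2 passed, while with a pseudocount of 0.1 it was -0.55 (adjusted p = 0.288). The XY libraries are of another cell line, so line and sex cannot be told apart.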

How the results depend on the processing

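Alternatives were set against the scaled limma results for the calls over the 9 genes and for single genes. The scale mattered most. As deposited TPM, 1 gene passed for XX against XY mESC, 2 for XX against XY EpiLC and 1 for the difference of the XX and XY transitions. On that scale Bax turned to 0.14 in the XX transition and -0.22 for XX against XY EpiLC, Mcl1 to 0.10 and Bak1 to 0.58 in the XY transition, and Bid to -0.0332 in the Tet3-/- transition. Without the filter 1 gene passed for XX against XY mESC, and calls were lost for Bcl2l1 and Bak1 in the difference of the XX and XY transitions (adjusted p = 0.0838 and 0.0847) and for Bmf in the Tet3-/- transition (adjusted p = 0.0662). Fits of only the groups compared called 0 genes for XX against XY mESC and 8 for XX against XY EpiLC. In these fits the spread comes from the compared libraries alone. For the alternatives on scaled values, the share of all tested genes called was not counted, so their counts cannot be set beside it. With a pseudocount of 0.1, Bcl2 lost its call in the difference of the XX and XY transitions, and Bmf in the Tet3-/- transition (0.91, adjusted p = 0.0529). With XX mESC 2 and Tet3-/- EpiLC 3 both left out, a setting added after seeing the data, Bax turned to 0.0281 in the XX transition. There 1 gene, Bid, passed for Tet3-/- against XX mESC.

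With 1 library left out at a time, 6 genes passed in the XX transition, 6 to 7 in the XY and 5 to 7 in the Tet3-/- transition, 1 to 3 for XX against XY mESC, 3 to 5 for XX against XY EpiLC and 3 to 6 for the difference of the XX and XY transitions. Changes near 0 crossed it: Bax ran from -0.26 to 0.0281 in the XX and from -0.0883 to 0.0725 in the Tet3-/- transition, and Bid from -0.0627 to 0.43 and from -0.0177 to 0.19. Of 18 mean shares of 3 coding transcripts, 5 moved by over 1 SD when non-coding transcripts were left out of the gene's total. The cause of these changes of call was not tested.

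Same-numbered libraries did not vary together throughout, with correlations of their deviations from -0.0887 to 0.27 over the 9 same-numbered pairs. The numbers were therefore not taken as pairs, although the labels number the Tet3-/- mutants in both states. In XY cells pairs 1, 2 and 3 had 0.21, -0.028 and 0.27, and differently numbered pairs -0.28 to 0.084. In Tet3-/- cells pairs 1, 3 and 4 had 0.22, 0.23 and -0.089, against -0.28 to 0.20. Pairing in these cells was thus not settled. With the replicate block 3 genes passed in the XX transition (limma adjusted p = 0.0506 for Mcl1, 0.0629 for Bak1 and 0.0540 for Bmf), 6 in the Tet3-/- transition without Mcl1 (0.101), 0 for XX against XY mESC and 9 for XX against XY EpiLC, and Bax turned to 0.0192 in the Tet3-/- transition. TPM gives no depth, so low levels such as Bcl2 in mESC carry an unknown counting error.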
